A study of Mus musculus with 9 samples.

Results

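The genes described here encode collagen chains, the basement membrane proteins nidogen and perlecan, and the enzymes and chaperone that modify, cleave and cross-link collagen. They were taken from a fixed list of 49 symbols, all of which were found among the 20690 genes tested. Of these, 32 are collagen chains. Collagens are triple helices. Chains are hydroxylated on proline and lysine in the endoplasmic reticulum and folded with the help of the chaperone Hsp47. Fibrillar collagens are trimmed of their propeptides, mostly after secretion, and lysyl oxidases start the cross-linking. In the brain, type IV collagen, nidogens and perlecan form the basement membranes around vessels and beneath the pia, while fibrillar collagen is scarce in the parenchyma and is made mainly by perivascular and meningeal cells.

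RNA was hybridised to 9 Affymetrix Mouse Gene 1.0 ST arrays, whose probes lie along the whole transcript, after extraction from cell cultures of the electroporated subventricular zone of mouse brain. The study compared glioma lines driven by an oncogene with neural stem and progenitor cells (NSC) that received reporters alone, 3 arrays per group. Erbb2 arrays came from CD1 mice electroporated with EGFP-P2A-Erbb2 V664E, a mutant receptor tyrosine kinase. Hras arrays came from CD1 mice electroporated with EGFP-Hras G12V, a mutant GTPase. NSC 1 carried a membrane EGFP and NSC 2 an EGFP-tagged histone 3.3, both in CD1 mice. The sample descriptions call NSC 2 GFP sorted and NSC 3 BFP sorted. For NSC 3 the labels list no EGFP plasmid and give C57/Bl6 mice with a floxed Dnm2 gene and no Cre, so its strain and reporter differ from those of all other arrays. All 9 samples also received the blue protein TagBFPnls-V5 and the plasmid pBase, and all were grown without serum in medium with EGF and FGF. Whether each line derives from its own animal is not stated in the labels. The p-values therefore reflect only how far these cultures differ, which may be partly technical. Since cultures are bulk samples, fewer cells of a type and less RNA per cell cannot be told apart.

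Values are the deposited log2 intensities. The median over all genes was 6.56 to 6.81 in NSC, 6.56 to 6.73 in Erbb2 and 6.98 to 7.19 in Hras arrays, so the Hras arrays sat higher for genes in general. The 10th percentile of all genes was highest in NSC 1 (4.88) and Hras 2 (4.78) and lay between 4.32 and 4.61 on the other 7 arrays. Olfactory receptor genes served as a guide to background, and 75 percent of their values lay at or below 4.87, here called the dim limit. Of the 49 genes, 48 were above that limit on all 9 arrays, and Lox was above it on 3. The remaining olfactory receptor values also lay above it, so passing the limit does not by itself show expression. Mean log2 levels per array were 5.25 to 6.25 for 12 endothelial markers and 5.41 to 6.12 for 10 microglia and macrophage markers. Single markers lay above these means, as Flt1, which reached 9.90 in Hras 3, and Cd68, which reached 8.47 in NSC 3. The median of the collagen chains ran from 6.4 (Erbb2 3) to 7.1 (Hras 2). How much of the level of the dimmer chains is background was not tested. The neural label was set against 10 stem and progenitor markers, whose mean log2 level was 9.60 to 10.17 in NSC, 8.88 to 9.31 in Erbb2 and 9.05 to 9.73 in Hras arrays. Sox2 (10.52 to 11.55) and Vim (12.17 to 12.86) were high on all 9 arrays and so do not tell NSC from glioma. Prom1 was low throughout (4.94 to 6.25), and Gfap ranged from 5.41 to 8.94. The calls among these 10 markers numbered 0. At an unadjusted p under 0.05 in limma, 4 were lower in Hras arrays than in NSC (Fabp7, Gfap, Slc1a3 and Pax6). The share of all genes lower there was 1.52%. Against NSC, 2 markers were lower in Erbb2 arrays (Pax6 and Gfap), beside 4.84% of all genes. A change is called where limma's moderated test gave an adjusted p (Benjamini-Hochberg, all genes) under 0.05.

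The clearest difference in the whole group was in Pcolce, the procollagen C-proteinase enhancer, which speeds removal of the C-terminal propeptide by Bmp1. Pcolce had log2 values of 8.23, 8.76 and 7.30 in NSC 1, 2 and 3. It had 11.97, 10.99 and 11.83 in Erbb2 1, 2 and 3, and 10.89, 11.35 and 10.64 in Hras 1, 2 and 3. All 6 glioma arrays lay above all 3 NSC arrays, and the gap between the lowest glioma and the highest NSC array was wider than the spread within any group. Against NSC, the mean of both glioma groups rose by 3.18 (SE 0.35, 95% interval 2.38 to 3.98, limma adjusted p = 0.0246), a 9.07-fold difference on the linear scale. Pcolce was the only one of the 49 genes called in that comparison, in which 0.353% of all genes were called. It lost the call after quantile normalization (adjusted p = 0.0514) and without NSC 1 (0.0532), NSC 2 (0.0562), Erbb2 1 (0.0584), Hras 1 (0.0653) or Hras 2 (0.0715), while its change stayed between 2.78 and 3.51 over all removals of 1 array.

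Set against NSC group by group, Pcolce differed by 3.50 in Erbb2 arrays (SE 0.41, limma adjusted p = 0.0535) and by 2.86 in Hras arrays (SE 0.41, adjusted p = 0.0733). These comparisons share the NSC arrays. The Hras and Erbb2 arrays differed from each other by -0.63, with a 95% interval from -1.56 to 0.29 (adjusted p = 0.471).

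Sequence near the starts of Pcolce and of Serpinh1, the chaperone gene described next, is shown because these genes had the largest mean differences from NSC in either direction among the 49. Both are given 5′ to 3′ on the gene's own strand, from RefSeq on GRCm38.p6. For Serpinh1 these are the 250 bases before the start, at chr7:99353240-99353489. For Pcolce the RefSeq extent of the gene, chr5:137605105-137611522, reaches past the start in the promoter table. The 30 bases shown, at chr5:137611447-137611476, lie before that start but inside the gene's outer extent. Capitals mark the GC box GGGCGG on either strand.
Pcolce: ctcccctgctgcCCGCCCagttggccagtc
Serpinh1: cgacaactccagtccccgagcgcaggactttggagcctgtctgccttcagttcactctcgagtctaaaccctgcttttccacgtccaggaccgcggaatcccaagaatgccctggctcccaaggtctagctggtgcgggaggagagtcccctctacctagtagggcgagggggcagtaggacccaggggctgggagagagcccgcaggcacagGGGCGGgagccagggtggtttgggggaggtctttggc

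Both strands of the 250 bases before each start were searched for 5 motifs. Each window held the GC box 1 time, at 60 to 55 bases before the tabulated start of Pcolce on the opposite strand and at 37 to 32 bases before that of Serpinh1 on the same strand, with no overlap with another motif. The box is present in 32.7% of 32851 RefSeq promoters of this length and in 27 of 39 promoters of the 36 listed genes that have one. Neither window contained the CCAAT box, found in 33.8% of all promoters, or the TATA motif TATAAA, found in 12.4%. The Ets-type motif AGGAAG, found in 29.5%, and the heat shock motif GAANNTTC, found in 6.69%, were also absent from both. A match is a description of the letters alone.

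Serpinh1 encodes Hsp47, the chaperone that binds the collagen triple helix in the endoplasmic reticulum. It had 9.82, 9.23 and 9.61 in NSC 1, 2 and 3, 5.87, 7.30 and 5.92 in Erbb2 1, 2 and 3, and 6.01, 6.80 and 9.42 in Hras 1, 2 and 3. The Erbb2 arrays all lay below NSC. Hras 1 and 2 did so too, but Hras 3 fell inside the NSC range. The difference from NSC was -3.19 in Erbb2 arrays (SE 0.78, limma adjusted p = 0.236), -2.14 in Hras arrays (SE 0.78, adjusted p = 0.324) and -2.66 for the mean of both (SE 0.67, adjusted p = 0.179). Without Hras 3, Serpinh1 was called lower in the mean of both groups, by -3.17 (adjusted p = 0.0413).

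**Figure D1:**
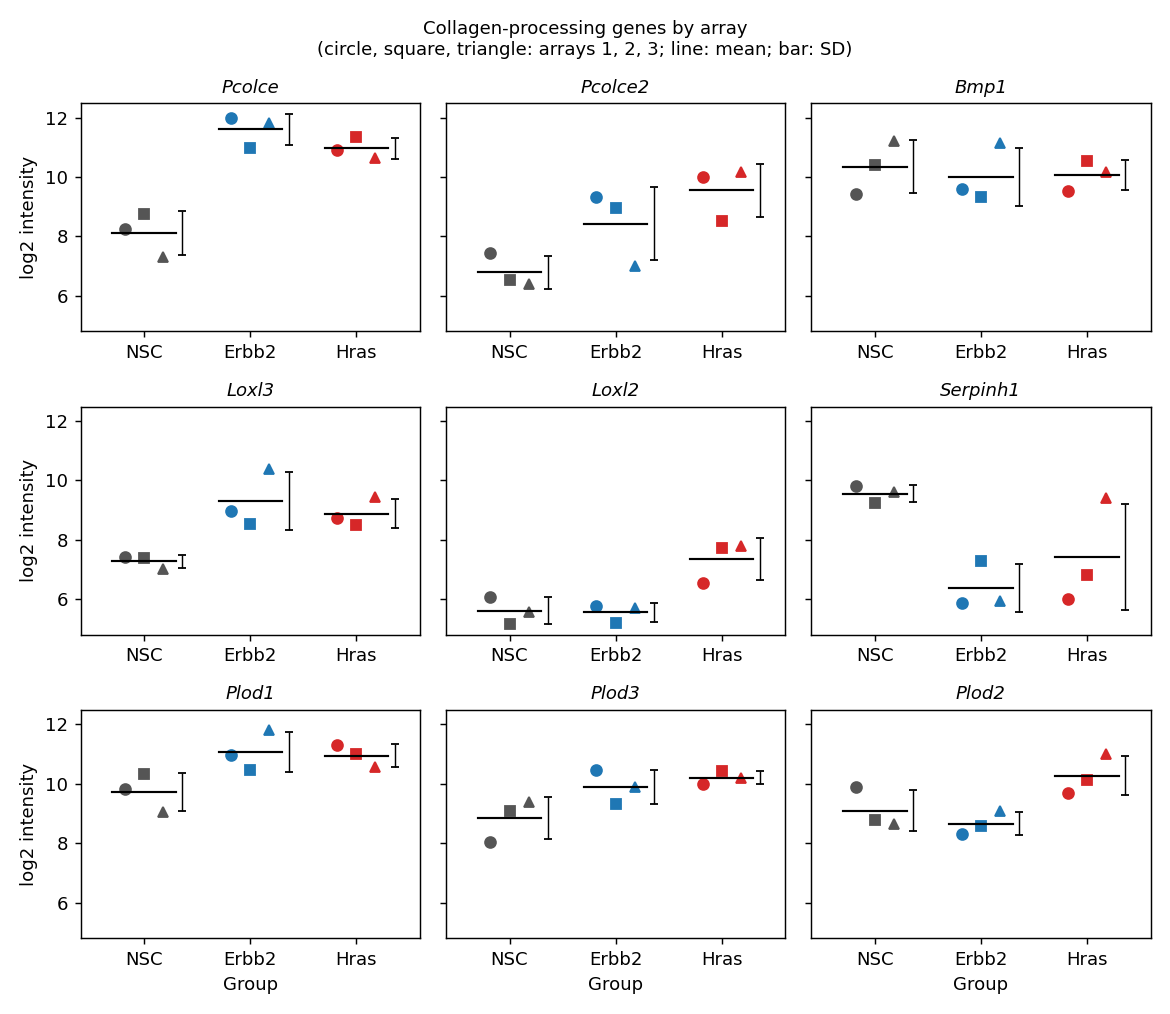
log2 intensity of 9 collagen-processing genes by group, with 1 symbol per array number, the group mean as a line and the SD as a bar. Pcolce is above 10.6 on all glioma arrays and below 8.8 on all NSC arrays, while Serpinh1 is above 9.2 in NSC and below 7.4 on all glioma arrays but Hras 3 (9.42).

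The lysyl hydroxylases Plod1, Plod2 and Plod3 modify the lysines that later carry cross-links and sugars, and Plod2 acts on the telopeptides. Plod1 had 9.82, 10.33 and 9.05 in NSC 1, 2 and 3, 10.96, 10.45 and 11.81 in Erbb2 1, 2 and 3, and 11.30, 10.99 and 10.55 in Hras 1, 2 and 3. Plod3 had 8.05, 9.08 and 9.39 in the NSC arrays, 10.48, 9.31 and 9.89 in Erbb2 and 10.00, 10.42 and 10.19 in Hras arrays. For Plod1 every glioma array was above every NSC array, and for Plod3 only Erbb2 2 (9.31) fell inside the NSC range. The means of both glioma groups differed from NSC by 1.27 for Plod1 (SE 0.37, limma adjusted p = 0.238) and 1.21 for Plod3 (SE 0.34, adjusted p = 0.233).

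Plod2 followed another order. Its values were 9.89, 8.77 and 8.63 in NSC 1, 2 and 3, 8.32, 8.58 and 9.07 in Erbb2 1, 2 and 3, and 9.70, 10.13 and 11.00 in Hras 1, 2 and 3. Every Hras array exceeded every Erbb2 array, and NSC 1 overlapped the Hras arrays. Hras and Erbb2 arrays differed by 1.62 (SE 0.43, 95% interval 0.66 to 2.58, unadjusted p = 0.00407, limma adjusted p = 0.391). The prolyl 4-hydroxylase subunits P4ha2 and P4ha3, which help stabilise the helix, ranged from 5.11 to 7.56 and from 4.91 to 7.63. P4ha2 was higher in each Hras array (6.24 to 7.56) than in each NSC array (5.13 to 5.80). For P4ha3 a single NSC array stood apart, NSC 2 at 7.63 beside 5.51 and 4.91 in NSC 1 and 3.

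Pcolce2, a second enhancer of propeptide removal, had 7.43, 6.54 and 6.40 in NSC 1, 2 and 3, 9.31, 8.95 and 7.01 in Erbb2 1, 2 and 3, and 9.99, 8.53 and 10.15 in Hras 1, 2 and 3. All Hras arrays and 2 of 3 Erbb2 arrays lay above NSC, and Erbb2 3 lay within it. The change was 2.77 in Hras (SE 0.64, limma adjusted p = 0.147) and 1.63 in Erbb2 arrays (SE 0.64, adjusted p = 0.499), and the difference between them, 1.14, had an interval from -0.32 to 2.59. Bmp1, the proteinase that both enhancers assist, ranged from 9.43 to 11.22 in NSC, 9.31 to 11.13 in Erbb2 and 9.53 to 10.52 in Hras arrays, with full overlap of the groups.

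Among the lysyl oxidases, which start cross-linking outside the cell, Loxl3 and Loxl2 differed most and in different ways. Loxl3 had 7.42, 7.38 and 7.00 in NSC 1, 2 and 3, 8.96, 8.53 and 10.39 in Erbb2 1, 2 and 3, and 8.72, 8.49 and 9.43 in Hras 1, 2 and 3. All glioma arrays lay above NSC, by 1.82 for the mean of both groups (SE 0.40, limma adjusted p = 0.135). Loxl2, which acts on type IV collagen, had 6.08, 5.17 and 5.56 in NSC, 5.76, 5.20 and 5.69 in Erbb2, and 6.54, 7.73 and 7.78 in Hras arrays. The Erbb2 arrays lay within the NSC range and the Hras arrays above both groups. Loxl2 had the smallest p of the 49 genes between Hras and Erbb2 arrays, with a difference of 1.80 (SE 0.38, 95% interval 0.94 to 2.66, unadjusted p = 0.00102, limma adjusted p = 0.391).

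Lox itself had 4.90, 4.54 and 4.34 in NSC 1, 2 and 3, 4.21, 4.36 and 4.19 in Erbb2 1, 2 and 3, and 4.71, 5.42 and 5.11 in Hras 1, 2 and 3. Only NSC 1, Hras 2 and Hras 3 were above the dim limit, so the gene is not shown to be above background on the other 6 arrays. Passing the limit does not by itself show expression in NSC 1, Hras 2 or Hras 3. Loxl1 ranged from 5.49 to 7.75, with its highest values in Hras 3 (7.75) and Erbb2 3 (7.66), and Loxl4 stayed between 5.35 and 6.38.

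Of the 9 fibrillar chains 0 were called by limma in any of the comparisons, where the share of all genes called is given with the counts over the 49. Col1a1 and Col1a2 form type I collagen, and Col3a1 forms type III. Col1a1 had 7.55, 6.97 and 6.95 in NSC 1, 2 and 3, 6.83, 6.77 and 6.75 in Erbb2 1, 2 and 3, and 7.08, 7.49 and 7.57 in Hras 1, 2 and 3. Col1a2 had 7.02, 6.39 and 6.63 in NSC, 6.39, 6.31 and 6.39 in Erbb2, and 6.66, 6.98 and 6.89 in Hras arrays. Col3a1 had 6.82, 6.47 and 6.43 in NSC, 6.35, 6.17 and 6.30 in Erbb2, and 6.60, 7.01 and 7.04 in Hras arrays. The Erbb2 arrays lay below the Hras arrays without overlap for all 3 chains, and below the NSC arrays for Col1a1 and Col3a1, while for Col1a2 NSC 2 equalled the highest Erbb2 arrays. The NSC arrays overlapped the Hras arrays. The differences of Hras from NSC were 0.22, 0.16 and 0.31 for Col1a1, Col1a2 and Col3a1, each with a 95% interval that spans 0, and the widest interval ran from -0.31 to 0.75. Between Hras and Erbb2 arrays they were 0.60, 0.48 and 0.61 (limma adjusted p = 0.391 each), where the median of all genes was 0.29. After quantile normalization they were 0.20 for Col1a1 and 0.15 for Col3a1, and after centring 0.18 and 0.19.

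Type V collagen regulates the diameter of type I fibrils. Col5a1 had 7.27, 6.77 and 7.12 in NSC 1, 2 and 3, 6.91, 6.61 and 7.40 in Erbb2 1, 2 and 3, and 6.96, 7.97 and 7.97 in Hras 1, 2 and 3, so that Hras 2 and 3 lay above all others. Its partner chain Col5a2 had 6.23, 6.31 and 6.40 in NSC, 5.54, 5.54 and 5.62 in Erbb2, and 5.46, 6.59 and 5.88 in Hras arrays. The Erbb2 arrays were lower than NSC without overlap, by -0.75 (SE 0.28, 95% interval -1.37 to -0.13, limma adjusted p = 0.468), and Hras 2 lay above NSC.

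Col11a1, a minor fibrillar chain best known from cartilage, had the widest range of the fibrillar chains. It had 7.03, 6.85 and 7.03 in NSC 1, 2 and 3, 8.58, 7.68 and 6.53 in Erbb2 1, 2 and 3, and 9.29, 7.89 and 6.64 in Hras 1, 2 and 3. In each glioma group arrays lay both above and below all NSC arrays, so the spread within a group (SD 1.02 and 1.32) exceeded the difference from NSC. The remaining fibrillar chains, Col5a3, Col11a2 and Col27a1, varied by 0.69 to 0.73 over all arrays.

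**Figure D2:**
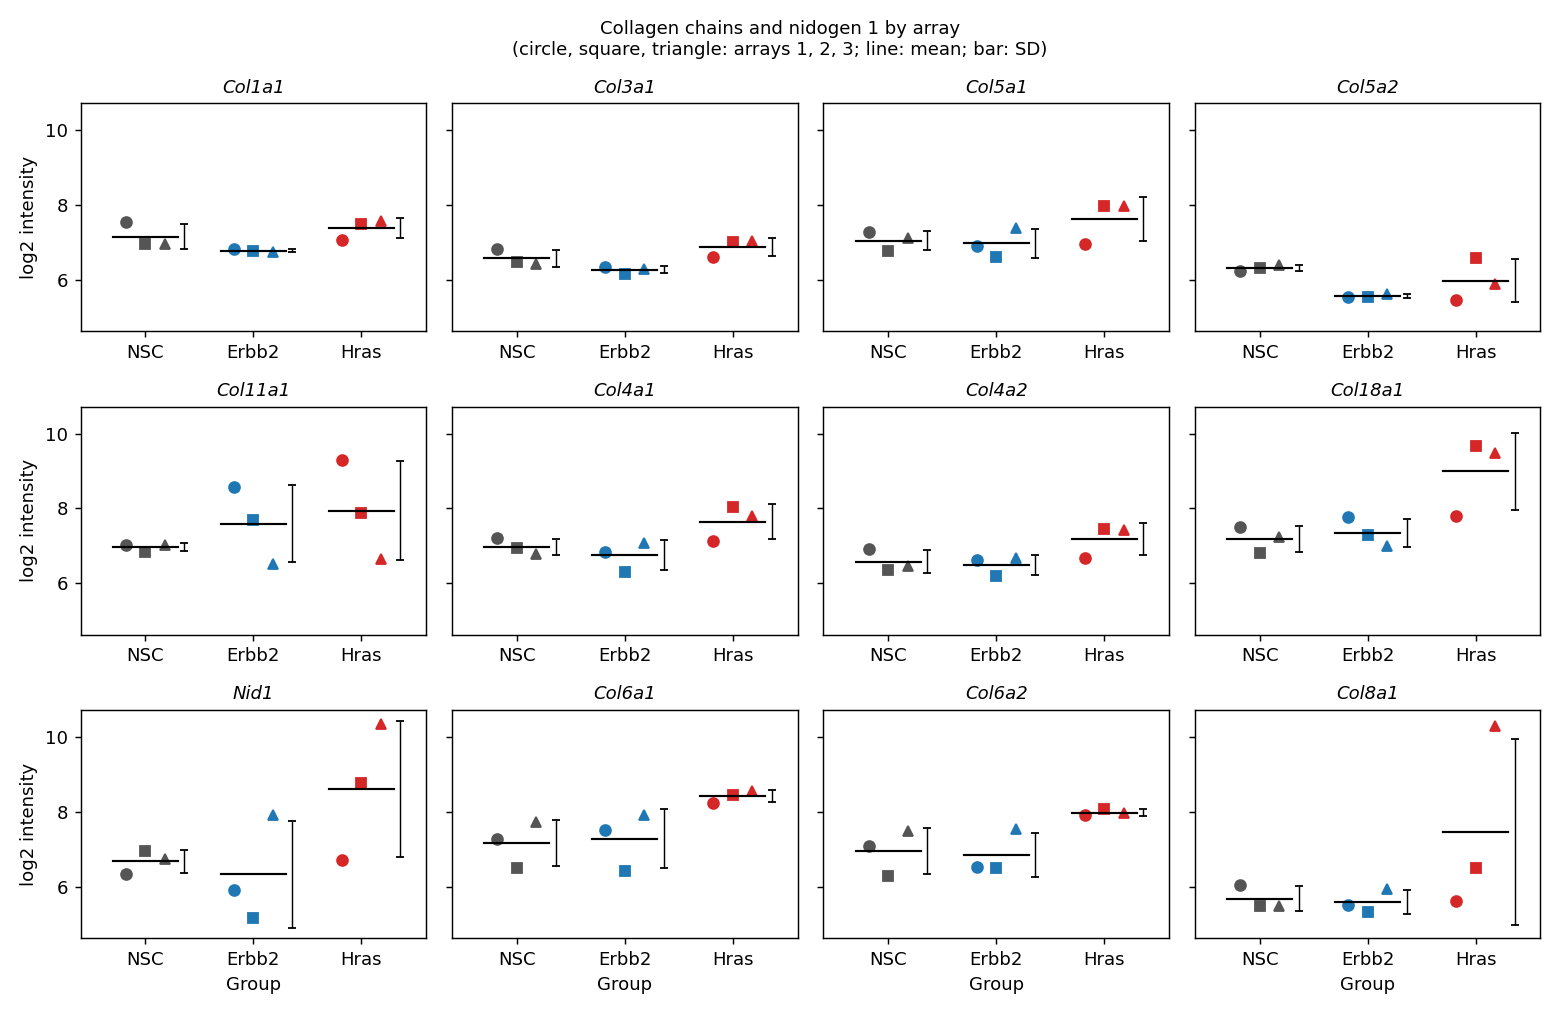
log2 intensity of 11 collagen chains and Nid1 by group, with 1 symbol per array number, the mean as a line and the SD as a bar. Fibrillar chains Col1a1 and Col3a1 stay within 0.87 over all arrays, whereas Col18a1, Nid1 and Col8a1 reach their highest values in Hras 2 or Hras 3.

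In the basement membrane group the Hras arrays had the highest means of Col4a1, Col4a2, Col18a1 and Nid1. Col4a1 and Col4a2 form the common type IV heterotrimer, and they are transcribed in opposite directions on chromosome 8. Their starts in the promoter table lie 21 bases apart, while their outer RefSeq extents overlap. Col4a1 had 7.21, 6.95 and 6.78 in NSC 1, 2 and 3, 6.85, 6.31 and 7.09 in Erbb2 1, 2 and 3, and 7.12, 8.04 and 7.79 in Hras 1, 2 and 3. Col4a2 had 6.92, 6.36 and 6.47 in NSC, 6.62, 6.19 and 6.68 in Erbb2, and 6.68, 7.44 and 7.42 in Hras arrays. In both genes Hras 2 and 3 were the highest arrays and Erbb2 2 the lowest, and Hras 1 lay within the NSC range. The Hras and Erbb2 arrays differed by 0.90 for Col4a1 (SE 0.30) and 0.68 for Col4a2 (SE 0.28), with limma adjusted p = 0.391 for both and a median of 0.29 over all genes. They were 0.53 and 0.28 after quantile normalization, and 0.48 and 0.27 after centring.

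The other type IV chains, Col4a3, Col4a4, Col4a5 and Col4a6, ranged from 5.07 to 7.22. Col4a5 and Col4a6 lay lower in the 3 Erbb2 arrays than in the 3 NSC arrays, by -0.76 and -0.81 (limma adjusted p = 0.519 and 0.518). Both are also neighbours, on the X chromosome, and NSC 3 had the highest value of each, 7.22 and 6.54. Without NSC 3 the differences were -0.51 and -0.52.

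Col18a1, the heparan sulfate collagen whose C-terminal fragment is endostatin, had 7.50, 6.81 and 7.23 in NSC 1, 2 and 3, 7.76, 7.28 and 7.00 in Erbb2 1, 2 and 3, and 7.81, 9.68 and 9.48 in Hras 1, 2 and 3. Hras 2 and 3 stood far above every other array, while Hras 1 was close to Erbb2 1. All Hras arrays were above all others. The change against NSC was 1.81 in Hras (SE 0.47, limma adjusted p = 0.184) and 0.17 in Erbb2 arrays (SE 0.47, adjusted p = 0.893), and Hras and Erbb2 arrays differed by 1.64 (SE 0.47, 95% interval 0.59 to 2.70, adjusted p = 0.391). Without Hras 2 the last value was 1.30, and without Hras 1 it was 2.23.

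Nid1, which links the laminin and type IV collagen networks, had 6.34, 6.95 and 6.74 in NSC 1, 2 and 3, 5.92, 5.16 and 7.93 in Erbb2 1, 2 and 3, and 6.71, 8.77 and 10.35 in Hras 1, 2 and 3. It had the widest range of all 49 genes, 5.19 log2 units, and Erbb2 3, Hras 2 and Hras 3 lay above all NSC arrays. The difference of Hras from Erbb2 arrays was 2.27 (SE 0.91, limma adjusted p = 0.391), and it was 1.40 without Hras 3 and 3.22 without Hras 1. Nid2 had its highest value in NSC 2 (8.09) and its lowest in Erbb2 2 (6.32). The perlecan gene Hspg2 was highest in Hras 2 (8.88) and NSC 3 (8.47), with overlap of all groups.

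Type VI collagen forms beaded microfibrils from chains of Col6a1, Col6a2 and Col6a3. Col6a1 had 7.28, 6.50 and 7.72 in NSC 1, 2 and 3, 7.52, 6.42 and 7.93 in Erbb2 1, 2 and 3, and 8.25, 8.44 and 8.56 in Hras 1, 2 and 3. Col6a2 had 7.10, 6.28 and 7.48 in NSC, 6.54, 6.49 and 7.54 in Erbb2, and 7.91, 8.07 and 7.97 in Hras arrays. In both chains, neighbours on chromosome 10, all Hras arrays lay above all 6 other arrays, as for Col18a1, but with a small spread (SD 0.16 and 0.08). Against NSC they differed by 1.25 and 1.03 in Hras arrays (SE 0.42 and 0.37, limma adjusted p = 0.292 and 0.315), and by 0.13 and -0.09 in Erbb2 arrays. The Hras difference of Col6a2 was 0.65 after quantile normalization and 0.64 after centring. Col6a3, on chromosome 1, had 6.36, 5.89 and 6.29 in NSC, 5.77, 5.76 and 5.54 in Erbb2, and 5.97, 6.76 and 7.14 in Hras arrays, and only Hras 2 and 3 exceeded NSC.

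Col8a1, a short-chain network collagen, had 6.06, 5.50 and 5.50 in NSC 1, 2 and 3, 5.51, 5.34 and 5.94 in Erbb2 1, 2 and 3, and 5.62, 6.51 and 10.29 in Hras 1, 2 and 3. A single array, Hras 3, accounted for its range of 4.95, and the 8 other arrays lay between 5.34 and 6.51. Col12a1, a fibril-associated chain, had 6.18, 5.95 and 5.47 in NSC, 5.27, 5.05 and 5.28 in Erbb2, and 5.49, 7.49 and 6.42 in Hras arrays. Its Erbb2 arrays lay below NSC and Hras arrays, and Hras 2 was the highest of all. The chain Col8a2 and the 3 transmembrane chains Col13a1, Col23a1 and Col25a1 varied by 0.64 to 0.82 over the 9 arrays, and the 6 other fibril-associated chains, among them the Col9 chains, by 0.92 to 2.00.

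**Figure D3:**
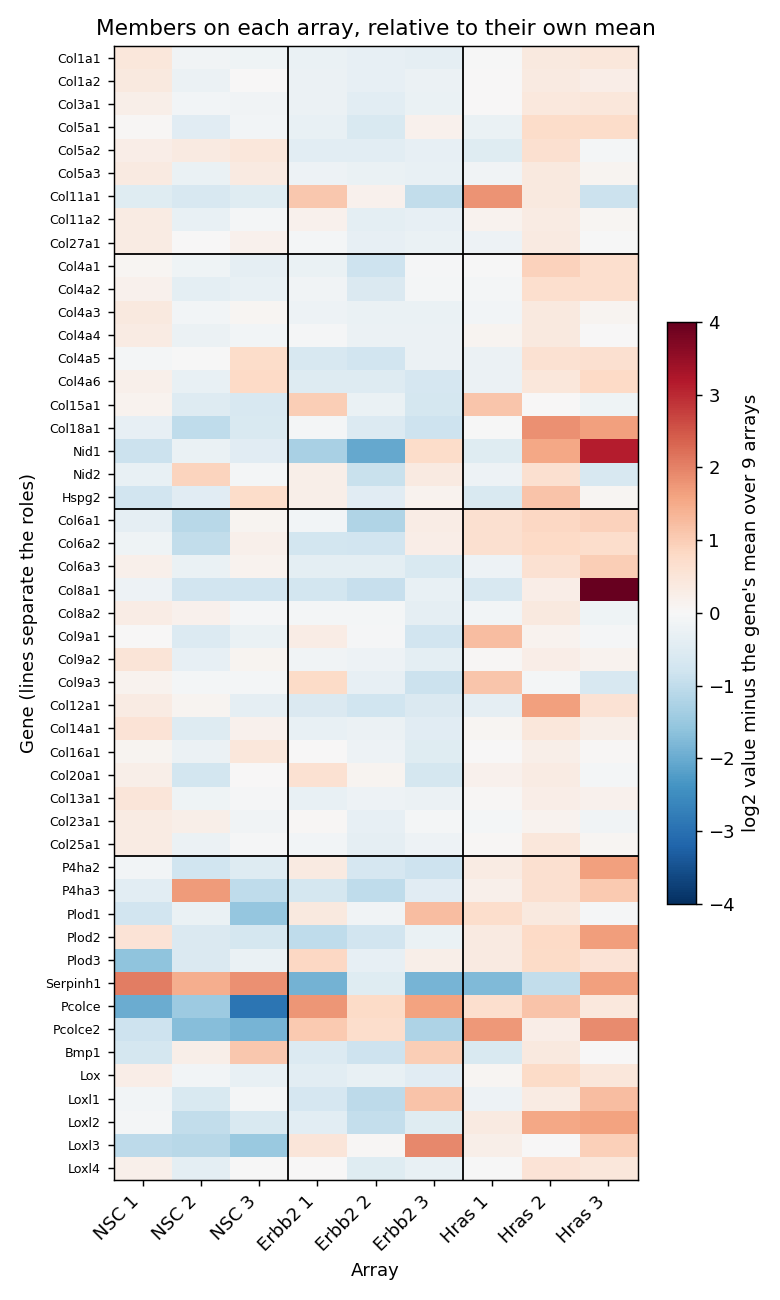
Each of the 49 genes (rows, separated by role) on each of the 9 arrays (columns), as the log2 value minus the gene's own mean. Pcolce is lowest in the NSC arrays, Serpinh1 is highest there and in Hras 3, and Nid1 and Col8a1 are highest in Hras 3.

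Counted over the group, few genes passed a test. Between Hras arrays and NSC, 0 of the 49 genes were called by limma, where 0.0% of all genes were called. At an unadjusted p under 0.05, 11 were higher in Hras arrays (22.4%, beside 10.5% of all genes) and Serpinh1 was lower (1.52% of all genes). The 11 were Pcolce, Pcolce2, Loxl2, Loxl3, Plod1, Plod2, Plod3, P4ha2, Col18a1, Col6a1 and Col6a2, so 8 of them are processing genes. The median change was 1.19 over the 14 enzymes and chaperones, 0.20 over the 32 collagen chains and 0.16 over all genes. After quantile normalization the median of all genes was -0.03 and that of the chains turned to -0.09. At this unadjusted p, 11 were then higher, with Lox in place of Col6a2, and 6 lower, where 4.77% and 6.83% of all genes were. After centring 6 were higher and 5 lower, where 3.06% and 15.3% of all genes were. In 10 genes every Hras array lay above every NSC array, beside 11.9% of all genes, and in 0 below, beside 2.58%.

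Between Erbb2 arrays and NSC, 0 of 49 were called by limma, beside 0.00967% of all genes (0.00483% higher and 0.00483% lower). At an unadjusted p under 0.05, 5 were higher (10.2%, beside 4.38% of all genes), all of them processing genes: Pcolce, Pcolce2, Loxl3, Plod1 and Plod3. A further 4 were lower (8.16%, beside 4.84% of all genes), namely Serpinh1, Col5a2, Col4a5 and Col4a6. In 12 genes every Erbb2 array lay below every NSC array (24.5%), beside 12.6% of all genes, and in 3 every one lay above, beside 5.09%. The change was negative for 26 of the 32 chains, and the chain median was -0.28 where that of all genes was -0.14. After quantile normalization the chain median was -0.20 and that of all genes -0.03.

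Between Hras and Erbb2 arrays, 0 of 49 were called by limma, beside 0.0% of all genes, and 17 were higher in Hras arrays at an unadjusted p under 0.05 (34.7%, beside 12% of all genes). None was lower, where 0.72% of all genes were. All 32 chains had a higher mean in Hras arrays as deposited, the median difference being 0.45, against 0.29 over all genes. This count depended on the scaling of the arrays: after quantile normalization 17 of 32 chains were higher, at a median of 0.04 where all genes had -0.01. With each array centred on its median 17 of 32 were higher, at a median of 0.03 where all genes had -0.13. The genes at an unadjusted p under 0.05 then numbered 6 (Col12a1, Col18a1, Col6a2, Lox, Loxl2 and Plod2) after quantile normalization, and 3 (Col18a1, Loxl2 and Plod2) after centring, when Pcolce was lower. Lox was not above the dim limit in any Erbb2 array, so its place among these genes rests on values at background. In 23 of the 49 genes every Hras array was above every Erbb2 array (46.9%), beside 25.6% of all genes, and in 0 below, beside 2.05%.

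For the mean of both glioma groups against NSC, Pcolce was the 1 gene called higher (0.256% of all genes) and 0 were called lower (0.0967%). At an unadjusted p under 0.05, 7 were higher (7.42% of all genes), adding Loxl3, Pcolce2, Plod1, Plod3, Loxl2 and Col18a1, and 2 were lower (2.62% of all genes), Serpinh1 and Col5a2. After quantile normalization 6 were higher and 5 lower (4.86% and 7.01% of all genes), and after centring 5 were higher and 6 lower (4.01% and 12.3%). All glioma arrays were above all NSC arrays in 3 genes, Pcolce, Loxl3 and Plod1, beside 2.87% of all genes, and below in 0, beside 1.28%.

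**Figure D4:**
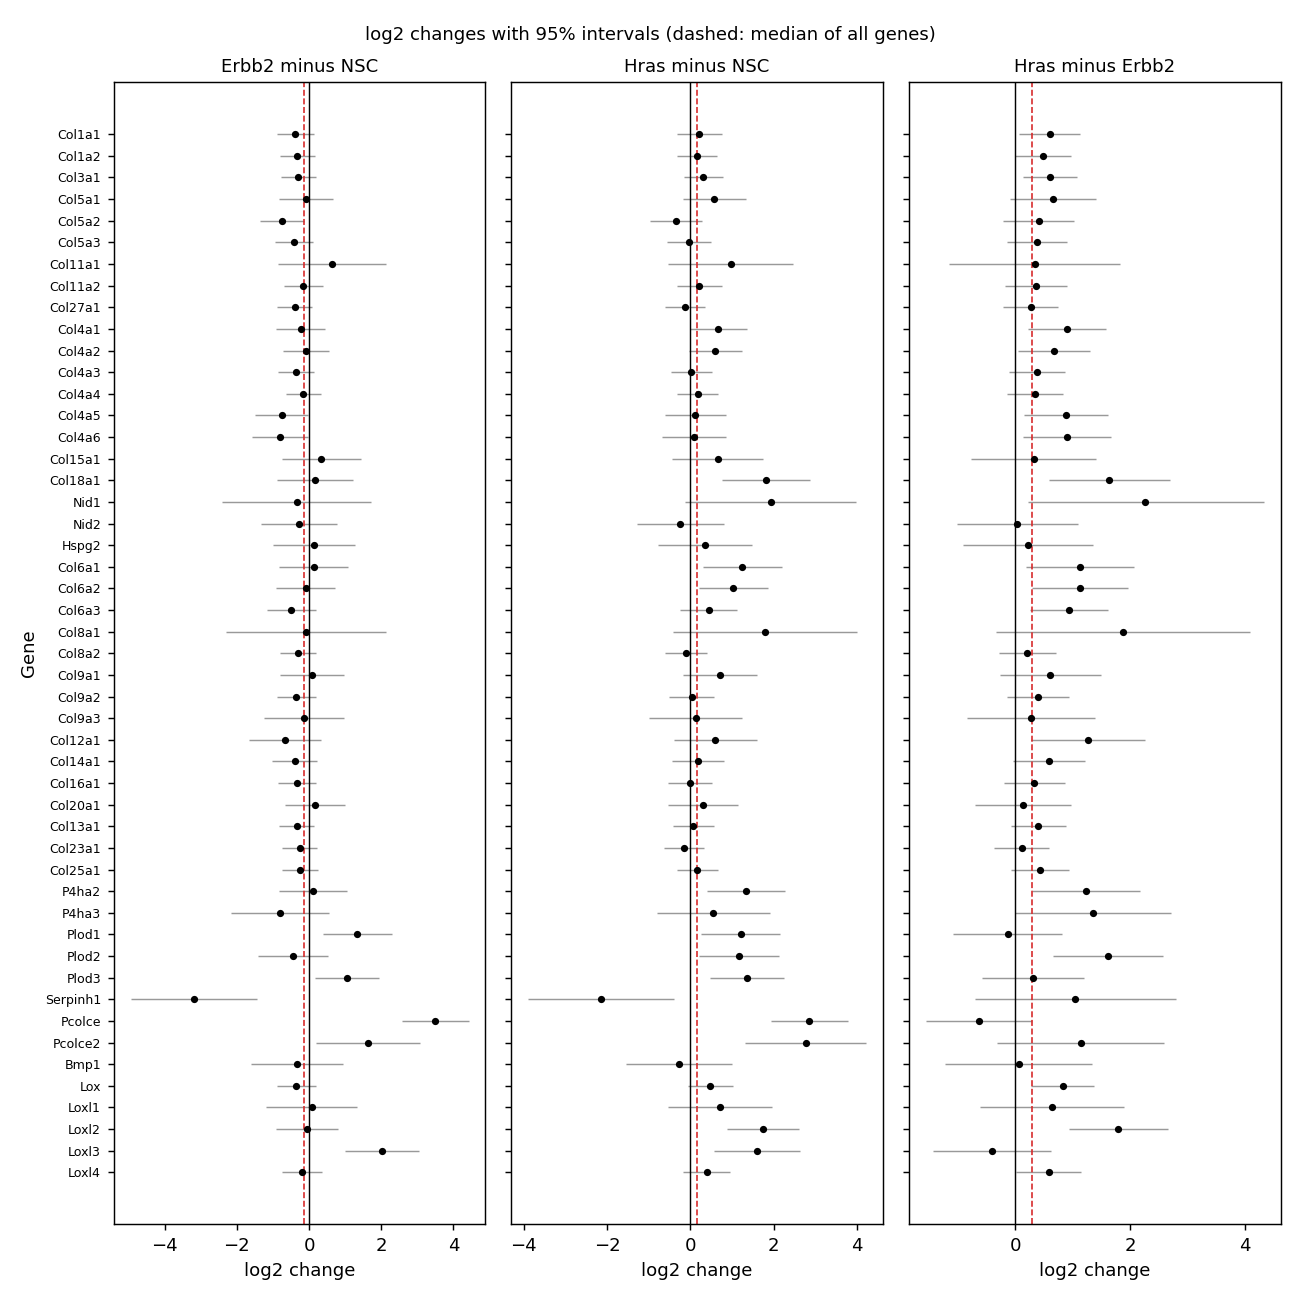
log2 change of each of the 49 genes (points) with its 95% interval (bars) in 3 comparisons, the dashed line giving the median of all genes. Pcolce, Pcolce2, Loxl3, Plod1 and Plod3 have intervals to the right of 0 in both glioma groups against NSC, and Serpinh1 to the left. Between Hras and Erbb2 arrays 17 of the 49 intervals lie to the right of 0, with the smallest p for Loxl2, Plod2 and Col18a1.

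Values varied more between arrays of a group in processing genes than in fibrillar chains. The SD between arrays of a group had a median of 0.59 over the 14 enzymes and chaperones, 0.45 over the 11 basement membrane genes, 0.25 over the 9 fibrillar chains and 0.36 over all genes. These sets also differed in level. Bmp1 (SD 0.82) lay between 9.31 and 11.22 and Col1a1 (SD 0.25) between 6.75 and 7.57, but P4ha2 (SD 0.57) lay between 5.11 and 7.56. The part of level in the spread was not tested. NSC 1 and Hras 2, the arrays with the highest 10th percentile of all genes, held the highest value of 18 of the 32 chains, and Erbb2 2 held the lowest value of 18 of the 49 genes. After quantile normalization Erbb2 2 held the lowest value of 10 and Hras 1 of 11, and the genes highest in NSC 1 or Hras 2 went from 22 to 16 of the 49. The part of array scale in the differences of the weakly varying chains was not tested beyond the 2 rescalings above.

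Other genes of collagen synthesis, its receptors and its binding partners were described from a list of 52 that holds none of the 49. In the mean of both glioma groups against NSC 1 of 52 was called higher and 0 lower, beside 0.256% and 0.0967% of all genes, and 16 were higher and 3 lower at an unadjusted p under 0.05 (7.42% and 2.62% of all genes). The gene called was Itga1, a chain of a collagen-binding integrin, which rose by 2.87 (SE 0.46, limma adjusted p = 0.0474). Itga1 had 6.32, 6.38 and 5.77 in NSC 1, 2 and 3, 9.75, 7.95 and 9.26 in Erbb2 1, 2 and 3, and 9.79, 9.32 and 8.07 in Hras 1, 2 and 3, with no overlap. The 5 next smallest p belonged to Emilin1, an elastic fibre glycoprotein, with a change of 1.73 (adjusted p = 0.0666), the fibulins Fbln2 (-3.20, adjusted p = 0.125) and Fbln1 (1.38, adjusted p = 0.145), Creb3l1, a transcription factor of procollagen genes (1.51, adjusted p = 0.148), and the prolyl 3-hydroxylase Lepre1 (0.84, adjusted p = 0.152).

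Fbln2, a matrix protein, had 9.96, 10.89 and 10.95 in NSC 1, 2 and 3, 6.41, 6.33 and 8.05 in Erbb2 1, 2 and 3, and 6.64, 7.20 and 9.75 in Hras 1, 2 and 3. The glioma arrays all lay below NSC, and Hras 3 was the closest to it. Group by group, 0 of the 52 were called by limma in Hras arrays against NSC and 19 were higher and 3 lower at an unadjusted p under 0.05, beside 10.5% and 1.52% of all genes. In Erbb2 arrays against NSC 0 were called, 13 were higher and 3 lower, beside 4.38% and 4.84%. Between Hras and Erbb2 arrays 0 were called, 8 were higher and 2 lower, beside 12% and 0.72%. Fap and Lum were at or below the dim limit on all 9 arrays, and Dcn was below it in the Erbb2 arrays. The 8 include Fap and Dcn, and Lum is among the 19 above and the 16 in the mean of both groups. Their places in these counts rest at least in part on values at background. Between Hras and Erbb2 arrays the 4 smallest p belonged to Dcn (0.64), Creb3l1 (-1.15), Mmp2 (-2.1) and the collagen chaperone Fkbp10 (2.42, SE 0.87). Each had limma adjusted p = 0.391, and Creb3l1 and Mmp2 were the 2 lower genes. For Fkbp10 the Hras arrays 1, 2 and 3 read 9.23, 11.09 and 11.18. Its Erbb2 arrays read 8.51, 6.17 and 9.56 in the same order.

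Markers of cells that make collagen in the brain were measured beside these genes. All 18 markers of pericytes, smooth muscle and fibroblasts were in the table, and the mean log2 level of the list was 5.98 to 6.37 in NSC, 5.89 to 6.41 in Erbb2 and 6.46 to 6.68 in Hras arrays. Within the list the markers went different ways. Lum was at or below the dim limit on all 9 arrays and Dcn lay between 4.43 and 5.42. The mesenchymal transcription factor Prrx1 was the 1 marker called, for the mean of both glioma groups against NSC (2.82, limma adjusted p = 0.0431). There 0.256% of all genes were called higher. Prrx1 was called in neither group alone (adjusted p = 0.083 in Hras and 0.103 in Erbb2 arrays). Twist1 was 7.01 to 8.22 in glioma and 6.05 to 6.73 in NSC arrays. Thy1 reached 11.53 in Erbb2 3, and Postn 10.36 in Erbb2 1 and 9.58 in Hras 1. The contractile genes Acta2 and Tagln had their lowest values in glioma arrays (6.24 and 4.93) and their highest in NSC (10.08 and 8.71). For Tagln all glioma arrays lay below NSC, while for Acta2 Hras 3 (8.29) overlapped NSC 3 (8.27). Neither was called in the mean of both groups, at -2.27 and -1.99 (limma adjusted p = 0.0655 and 0.112). The endothelial list of 12 had means of 5.33 to 5.91 in NSC, 5.25 to 5.43 in Erbb2 and 5.66 to 6.25 in Hras arrays. Of its markers 0 were called in any comparison, where at most 0.353% of all genes were. Among them Flt1 ran from 5.87 in Erbb2 2 to 9.90 in Hras 3. The part of such cells in the collagen values was not tested.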

How the data were processed

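Per the labels' protocols, 9 cultures, 3 per group, were profiled on Mouse Gene 1.0 ST arrays. The authors deposited log2 values for 20715 gene rows. They also deposited linear intensity values for 35512 probe sets, without gene names. Within 0.0001, 47 of the 49 genes matched the log2 intensity of 1 probe set, and 2 matched none. How background, normalization and probe summary were handled is nowhere stated in these sources. The 25 rows with a number in place of a symbol were left out, and 0 value columns were unmapped.

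The 20690 genes of all 9 arrays entered a single limma 3.58.1 fit of group means in R 4.3.3 (lmFit, eBayes, 6 residual and 3.12 prior degrees of freedom). Each glioma group and their mean were contrasted with NSC, and Hras with Erbb2. Tested on simulated data for Hras minus NSC over 20690 genes, the fit recovered 67% of 100 genes changed by 2 log2 units and 89% of 100 changed by 4. The simulated noise was normal and independent between genes and arrays, with each gene's own spread. It held no differences in array scale and no shared deviations, so these shares need not hold for the real arrays.

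Alternatives were quantile normalization, centring of arrays, a filter on dim genes (mean at or below 4.87), array weights, the replicate number as a block, and leaving out each array. Replicate numbers are those of the titles. The description of Hras 3 ends in 4, those of NSC 1 and 2 both begin with 4, and NSC 3 is labelled both EGFP purified and BFP sorted, so the block rests on doubtful numbers. Values on every array were given, by rule, for 24 genes: those called, the 5 with the smallest p per contrast, 10 fixed chains and the 2 with the widest range per role. Values of other genes were chosen after they were seen. The genes and lists were chosen with earlier results of these data known. The number of arrays limits the precision.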

Additional observations from a re-analysis of the deposited data

Results flagged for a closer look

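In 7 of the 49 genes (14.3%, beside 6.63% of all genes) every Hras array lay above the mean of the NSC arrays and every Erbb2 array below it. The difference between Hras and Erbb2 arrays was 1.62 for Plod2, 1.36 for P4ha3, 0.83 for Lox, 0.61 for Col3a1, 0.59 for Col14a1, 0.43 for Col25a1 and 0.34 for Col4a4. In limma's test of that difference none was called, with adjusted p from 0.391 to 0.466. For Lox the 3 Erbb2 arrays and Hras 1 were at or below the dim limit, so its value is not a difference between measured levels. The pattern held for 2 of the 7, Plod2 and P4ha3, after quantile normalization. For P4ha3 it rests on a single array. Its NSC mean of 6.02 lay above NSC 1 (5.51) and NSC 3 (4.91) because of NSC 2 (7.63). Erbb2 1 (5.24) and Erbb2 3 (5.47) lay above NSC 3. Both glioma groups were set against the same NSC arrays.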

How the results depend on the processing

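Of the 47 changes with an unadjusted p under 0.05, 1 was called as reported (Pcolce in the mean of both groups against NSC), so most could only stay uncalled and their calls say little of stability. That call was lost in 6 of its repeats, as given above, and 6 calls were gained. Between Hras and Erbb2 arrays the sizes depended on the scaling: from the deposited values to quantile normalization Col3a1 went from 0.61 to 0.15, Loxl4 from 0.59 to 0.13, Col4a5 from 0.88 to 0.44, Col4a6 from 0.90 to 0.46, Col6a3 from 0.93 to 0.46 and P4ha2 from 1.24 to 0.76. Without 1 array, Col12a1 went from 1.27 to 0.76 (Hras 2) and Col6a1 from 1.13 to 0.69 (Erbb2 2), and in Erbb2 against NSC Plod3 went from 1.05 to 0.66 (NSC 1). Serpinh1 gained a call in the mean of both groups without Hras 3, as given above. Pcolce gained a call in Hras against NSC with array weights (adjusted p = 0.0497), and in Erbb2 against NSC with array weights (0.0246), without dim genes (0.0469), with the replicate block (0.0384) and without Hras 3 (0.0496). These are the fits in which 1 gene of the 49 was called there. In the mean of both groups, 0 of the 49 were called after quantile normalization and 0 to 2 without 1 array. Without 1 array the number was 0 to 1 in Erbb2 against NSC and 0 in the other comparisons.

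Over all genes, the mean of both groups against NSC had 73 calls, 12 after quantile normalization, 23 after centring and 0 to 70 without 1 array. Hras against NSC had 0 calls, 2 after quantile normalization, 1 after centring, 70 with array weights, 9 with the replicate block and 0 to 76 without 1 array. The 76 came without NSC 1, which also had the lowest array weight (0.288, beside 0.762 to 1.67 on the other arrays). Without NSC 1, Erbb2 against NSC had 0 calls. Erbb2 against NSC had 2 calls, 1 after quantile normalization, 8 without dim genes, 37 with array weights, 27 with the replicate block and 0 to 13 without 1 array. The cause was not tested.

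The median change of the 49 genes was 0.39 in Hras against NSC, 0.17 after quantile normalization, 0.00 after centring and 0.25 to 0.51 without 1 array. In Hras against Erbb2 it was 0.59, 0.13, 0.17 and 0.45 to 0.67 in the same order. In Erbb2 against NSC it was -0.25, and -0.31 to -0.06 without 1 array. In the mean of both groups it was 0.03, -0.15 after centring and -0.01 to 0.17 without 1 array. The deviations of same-numbered arrays from their group means correlated between -0.344 and 0.441 over genes, so the numbers are not shown to pair the arrays, and the block moved the counts of calls as given.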

Other observations

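Several collagen genes were high in Erbb2 1 and Hras 1 together. These genes were chosen after their values were seen. Col9a3, a chain of the fibril-associated type IX collagen, had 8.36 in Erbb2 1 and 8.71 in Hras 1, beside 6.73 to 7.54 on the 4 other glioma arrays and 7.54 to 7.75 in NSC. Col15a1, a collagen of basement membrane zones, had 7.69 and 7.83 on these arrays and 6.02 to 6.84 on the 7 others. Col9a1 had 7.01 and 7.96, beside 5.95 to 6.86 on the 7 others. Postn, one of the pericyte, smooth muscle and fibroblast markers, had 10.36 and 9.58, beside 4.56 to 5.55 on the 7 others. On the same arrays the mean log2 level of 6 oligodendrocyte precursor markers was 11.07 and 10.50, beside 8.10 to 10.25 on the other glioma arrays and 7.82 to 8.12 in NSC. Erbb2 2 had 10.25, close to Hras 1, but only 7.29 for Col9a3, 6.44 for Col15a1, 6.67 for Col9a1 and 5.48 for Postn. Within the list Olig1 and Olig2 were as high in NSC (11.45 to 12.24 and 10.45 to 11.22) as in Erbb2 1 (11.72 and 11.05) and Hras 1 (12.07 and 10.90). The other markers were higher on these 2 arrays than in NSC, but not on them alone. Pdgfra was 9.06 to 11.89 on all 6 glioma arrays and 5.16 to 5.79 in NSC. It was called in the mean of both groups (4.92, limma adjusted p = 0.0246), where 0.256% of all genes were called higher. Erbb2 2 was at or above Hras 1 for Sox10 (10.60 and 10.59) and Gpr17 (8.24 and 7.53). It was below Hras 1 for Pdgfra (10.68 and 11.89) and Cspg4 (9.60 and 10.04). The part of cell state in these values was not tested.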
